A study of Rattus norvegicus with 8 samples.

Results

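The meningeal matrix and fibroblast genes studied here were 10 genes of the rat: Col1a1, Col1a2, Col3a1, Bgn, Dcn, Fn1, Mgp, Aldh1a2, Ptgds and Igf2. They were found as every probe set whose gene symbol in the platform's annotation was one of these names, which gave 27 probe sets out of 8740 (control probe sets left out). All 27 lay above the floor on low intensities on at least 2 arrays and were tested, among 7770 tested probe sets in all. The set is thus 10 of the 4736 named genes on the array. Col1a1 and Dcn had 4 probe sets each, Fn1 5, Igf2 6, Col3a1 and Bgn 2 each, and the other 4 genes had 1.

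Total RNA of whole rat brain was measured on 8 arrays, 1 array per sample. The control group held 3 samples. They came from intubated rats that breathed isoflurane, a volatile anaesthetic, for 3 min and were at once perfused with cold saline. The 1 hr group held 2 samples and the 2 hr group 3, from intubated rats given 2% isoflurane for that time. The labels of these samples name no perfusion. Strain, sex and age: not given in the sources used here. No group without anaesthetic was analysed. The labels give no animal number, so each p-value reflects only how much these samples vary, and that variation may be technical.

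The meninges are sheets of connective tissue around the brain, built by fibroblasts that lay down collagen and proteoglycans. Similar fibroblasts line the larger vessels and the stroma of the choroid plexus, the tissue that makes cerebrospinal fluid. Meningeal cells also secrete retinoic acid, prostaglandin D2 and insulin-like growth factor 2, which reach the brain through the fluid. Several of these genes are made elsewhere too: Ptgds in oligodendrocytes, Igf2 in choroid plexus epithelium, and Fn1, Bgn and Mgp in vessel walls. In RNA of whole brain, fewer cells of a type and less RNA per cell cannot be told apart.

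Control replicate 3 stood apart from the other arrays. Its ratio of the 3' to the 5' actin probe set was 2.89, against 1.04 to 1.68 elsewhere, and ribosomal protein genes averaged 10.86 on the log2 scale, the highest of the 8 arrays, which otherwise spanned 9.43 to 10.64. It was also 1 of 3 arrays, with 1 hr replicate 1 and 2 hr replicate 3, whose highest intensity was 23009.4 or more, where the other 5 reached 3504.2 to 12444.6. Neurons were clearly sampled on every array, but the summed intensity of 8 neuron markers was 1491.7 on control replicate 3 and 2747.2 to 5030.0 on the others. Snap25, Nefl, Vsnl1, Syn1 and Syt1 were lowest of all arrays there, whereas Nefm, Gad1 and Camk2a were not. Camk2a read 40.2 there, above the 18.8 and 24.9 of the other controls. What part these differences had in the results below was not tested.

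Of the 10 genes, 6 read lowest of all arrays on control replicate 3. These were the 3 collagen genes, Bgn, Fn1 and Aldh1a2, and the level there was 35.4% of the mean of the other controls for Col1a1, 51.0% for Col1a2, 43.1% for Col3a1, 45.3% for Bgn, 43.5% for Fn1 and 13.9% for Aldh1a2. Mgp went the other way, at 180% of the other controls. Over all probe sets of the 10 genes, 11 of 27 were lowest on this array, or 40.7%, against 20.2% of all 7770. At the other end, 2 hr replicate 2 held the highest value for 8 of the 27, or 29.6%, against 14.6% of all.

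**Figure D1:**
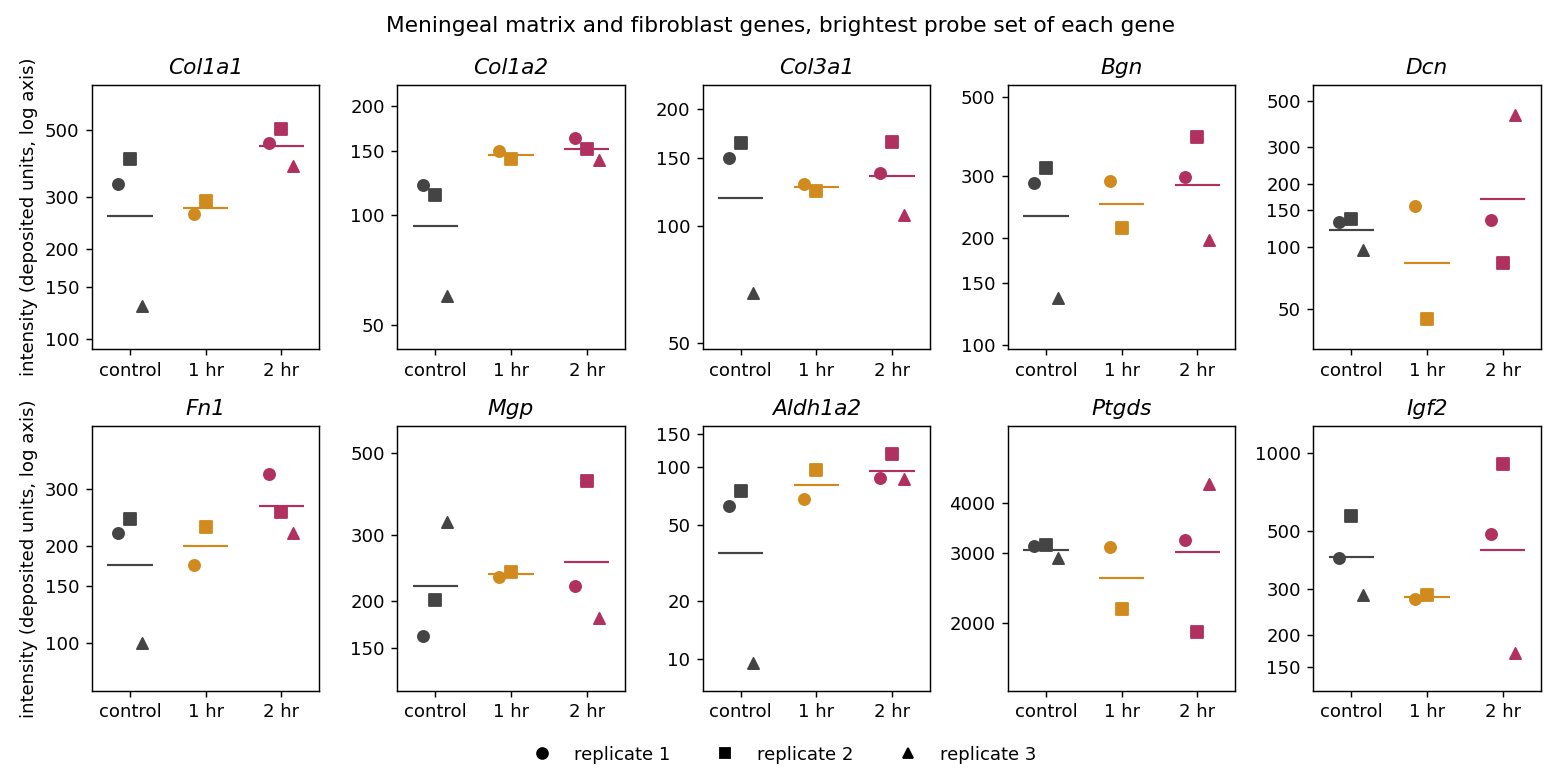
Deposited intensity (log axis) of the brightest probe set of each of the 10 genes in each array, by group, with symbols for replicate numbers. Horizontal lines are group means of log2 values. Control replicate 3 is the lowest array for the 3 collagen genes, Bgn, Fn1 and Aldh1a2, and 2 hr replicate 2 the highest for 6 genes.

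After 2 hr of isoflurane the mean of 9 of the 10 genes was above the controls and that of Ptgds below, with a median log2 change of 0.39 against 0.02 over all probe sets. By probe set, 21 of 27 were above the controls, where 52.1% of all probe sets were. The test, limma with Benjamini-Hochberg adjustment over 7770 probe sets, called 0 of the 27 (0% of all, 0 of 7770) at an adjusted p under 0.05. At an unadjusted p under 0.05 there were 0 of 27, against 137 of 7770, or 1.76%, and the adjusted p of every member was 1. The 2 hr arrays lay wholly above the controls for 2 of the 27, Col1a2 and Aldh1a2, where 2.9% of all probe sets did so, and wholly below for 0, against 2.55% of all. Without control replicate 3 the median log2 change was 0.24 and 6 of 10 genes were higher.

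After 1 hr, 7 of the 10 genes were above and 3 below the controls, with a median log2 change of 0.10 against 0.05 over all probe sets. By probe set 20 of 27 were above, where 55.7% of all were, and limma called 0 of 27 (0% of all) at an adjusted p under 0.05. At an unadjusted p under 0.05 there was 1 of 27, against 209 of 7770, or 2.69%. That 1 was a dim Fn1 probe set (M28259cds_at) above the floor on the 1 hr arrays alone, so it entered the test only through them and is no support. The groups did not overlap upward for 3 of 27 (7.54% of all) and downward for 1 (5.11% of all). M28259cds_at was 1 of those 3, and for the same reason its lack of overlap is no support. The median turned to -0.27 without control replicate 3 (3 of 10 genes higher), to -0.34 without the 3 arrays of highest top intensity and to -0.02 with the arrays centred on a common median.

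The 2 hr group was set against the 1 hr group with the same test, and it shares its arrays with the comparisons above. All 10 genes had a higher mean after 2 hr on the brightest probe set, with a median log2 difference of 0.23 against -0.03 over all probe sets. By probe set the count was 17 of 27, where 47.4% of all were higher. Limma called 0 of 27 (0% of all) at an adjusted p under 0.05, and at an unadjusted p under 0.05 there was 1 of 27, again M28259cds_at, against 216 of 7770, or 2.78%. The groups did not overlap upward for 2 of 27 (5.98% of all) and downward for 3 (7.82% of all). The upward ones were Col1a1 (M27207mRNA_s_at) and a dim Igf2 probe set (X16703_r_at), whose 1 hr arrays both lay at the floor. Those downward were Dcn (Z12298cds_s_at) and the dim Fn1 probe sets X05831cds_at (9.5 to 25.5 over the arrays) and M28259cds_at. M28259cds_at entered the test only through the 1 hr arrays, so it is no support here either. Without 2 hr replicate 2 the median difference was 0.08 and 7 of 10 genes were higher. No neighbouring pair in the order of the 3 group means of any member, as given below, passed the test.

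**Figure D2:**
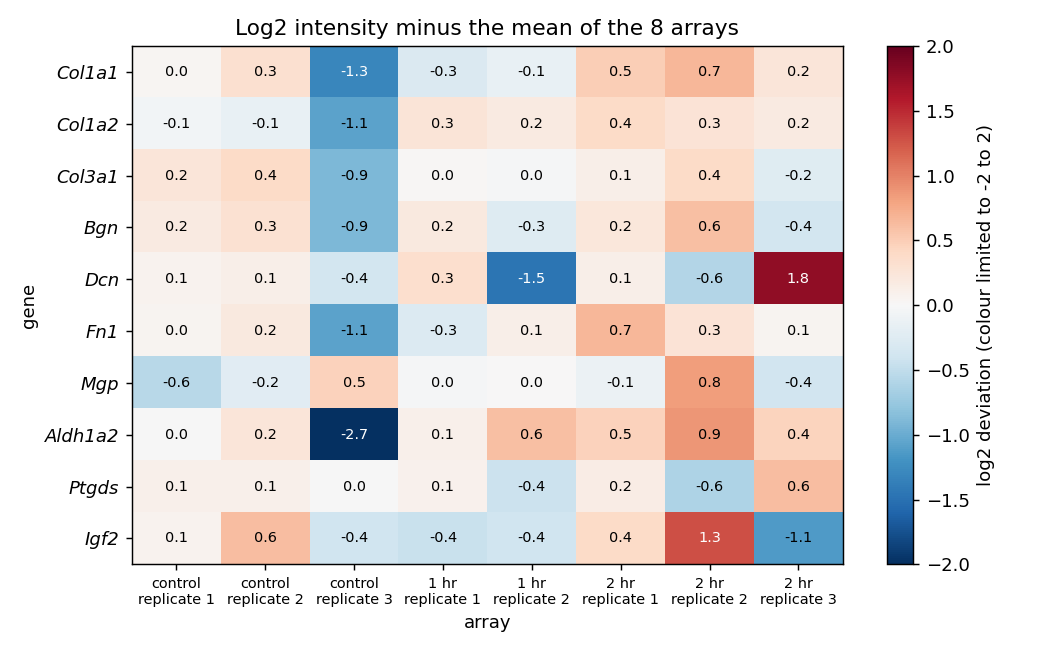
Log2 intensity of each of the 10 genes (rows, brightest probe set) minus its mean over the 8 arrays, by array (columns), with colour limited to -2 to 2, so Aldh1a2 on control replicate 3 lies past its end. The column of control replicate 3 is low for 6 genes, and 2 hr replicate 2 is high for Igf2, Mgp and Aldh1a2 while low for Ptgds and Dcn.

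Upstream sequence is shown for Col1a2 and Aldh1a2, the 2 members whose 2 hr arrays lay above every control. RefSeq's promoter table of assembly GRCr8 held 4 of the 10 members (Col1a2, Aldh1a2, Ptgds and Igf2), matched by symbol. Capitals mark CCAAT or its reverse complement ATTGG, a box bound by the factor NF-Y, and TATAAA, a form of the TATA box. Positions count from the table's gene start, which was not checked against transcription starts.
Col1a2, chr4:33518307-33518406, plus strand: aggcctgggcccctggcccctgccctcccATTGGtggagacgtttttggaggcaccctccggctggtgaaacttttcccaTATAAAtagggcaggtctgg
Aldh1a2, chr8:80758491-80758600, plus strand: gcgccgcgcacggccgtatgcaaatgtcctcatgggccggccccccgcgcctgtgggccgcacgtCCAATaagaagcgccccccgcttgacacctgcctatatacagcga
Col1a2 held ATTGG 221 and TATAAA 170 bases before that start, and Aldh1a2 held CCAAT 85 bases before it. Of all 33469 promoters in the table, 34% held CCAAT on either strand in the 250 bases before the start, and 12.9% held TATAAA or TTTATA. The motif GGGCGG or CCGCCC, the GC box bound by Sp1, was in 30.5% of all. It stood in Ptgds and in 1 of the 2 Igf2 promoters but not in the windows of Col1a2 and Aldh1a2. None of the 3 motifs stood in all 5 promoters of these 4 genes.

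Col1a1 and Col1a2 encode the chains of type I collagen, the main fibre of dura and skin. On the brightest Col1a1 probe set (M27207mRNA_s_at) the controls read 332.3, 400.4 and 129.6, the 1 hr arrays 262.4 and 290.5, and the 2 hr arrays 454.8, 507.3 and 379.3. The 2 hr arrays lay above both 1 hr arrays and overlapped the controls through control replicate 2. On the log2 scale the means were 8.01 ± 0.87 (SD, n = 3) in controls, 8.11 ± 0.10 (SD, n = 2) at 1 hr and 8.79 ± 0.21 (SD, n = 3) at 2 hr. The change at 2 hr was 1.72-fold, or 0.78 (SE 0.398) on the log2 scale (limma, adjusted p = 1), and without control replicate 3 it was 0.28. At 1 hr it was 0.10, and -0.40 without that control. The 3 other probe sets of Col1a1 read 0.03, 0.18 and 0.10 at 2 hr, so the larger value was a reading of M27207mRNA_s_at alone. At 1 hr those 3 probe sets read -0.11, 0.28 and 0.06.

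Col1a2 (rc_AA875531_s_at) read 120.9, 113.8 and 59.8 in controls, 150.6 and 142.7 at 1 hr, and 163.4, 152.3 and 142.2 at 2 hr. All 5 exposed arrays were above all 3 controls, and the exposed groups overlapped each other. The means were 6.55 ± 0.56 (SD, n = 3), 7.20 ± 0.06 (SD, n = 2) and 7.25 ± 0.10 (SD, n = 3) on the log2 scale. The change was 0.70 (SE 0.321) at 2 hr, with an unadjusted p of 0.0548, the smallest of the 27 in that comparison, and an adjusted p of 1 in limma. At 1 hr it was 0.65 (SE 0.358). Without control replicate 3 these values were 0.38 and 0.32, and the order of the arrays is not touched by leaving it out, since the other controls also lay below all exposed arrays.

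Col3a1 encodes type III collagen, which forms fine fibres with type I. Its brightest probe set (M21354_s_at) read 149.8, 163.6 and 67.5 in controls, 128.2 and 123.5 at 1 hr, and 137.4, 164.9 and 107.1 at 2 hr. The 2 hr arrays spanned the range of the others except control replicate 3, and both 1 hr arrays lay below control replicates 1 and 2 and above control replicate 3. The log2 change was 0.18 (SE 0.374) at 2 hr and 0.09 (SE 0.418) at 1 hr, turning to -0.22 and -0.32 without control replicate 3. A second probe set (X70369_s_at) read 0.14 and 0.06. The mean log2 of the 3 collagen genes was 7.15 ± 0.71 (SD, n = 3) in controls, 7.43 ± 0.004 (SD, n = 2) at 1 hr and 7.71 ± 0.20 (SD, n = 3) at 2 hr. That order rested on control replicate 3, at 6.33. Without it the control mean was 7.56, above the 1 hr mean, and the difference at 2 hr went from 0.56 to 0.15.

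Biglycan and decorin, from Bgn and Dcn, are small leucine-rich proteoglycans that sit on collagen fibres, and decorin also binds transforming growth factor beta. The brightest Bgn probe set (U17834_at) read 287.1, 315 and 136.3 in controls, 290.9 and 213.5 at 1 hr, and 296.9, 386.5 and 198.1 at 2 hr. The groups overlapped, and its log2 change of 0.29 (SE 0.383) at 2 hr was -0.09 without control replicate 3. At 1 hr it was 0.11, and -0.27 without that control. The dimmer Bgn probe set (rc_AA859830_s_at) was lowest on control replicate 1, at 25.9, and not on control replicate 3, at 40.4, and its change was 0.53 at 2 hr and 0.43 at 1 hr.

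The probe sets of Dcn disagreed. The brightest (X59859_i_at) read 130.7, 135.7 and 96.7 in controls, 156.4 and 45 at 1 hr, and 134.9, 83.4 and 426 at 2 hr, a 9.47-fold range over the arrays set by 2 hr replicate 3 and 1 hr replicate 2. Its log2 change was 0.49 (SE 0.62) at 2 hr, and -0.17 without 2 hr replicate 3. Another (Z12298cds_s_at) read 53.6, 66.5 and 84.1 in controls, 75.3 and 88.3 at 1 hr, and 66.6, 46.1 and 44.8 at 2 hr. That probe set had every 2 hr array below every 1 hr array, at a log2 difference of -0.66 (SE 0.396; limma, adjusted p = 1). The brightest probe set put 2 hr above 1 hr by 1.01, so no order of the groups holds for Dcn over its probe sets.

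Fibronectin, from Fn1, is a glycoprotein that links cells to collagen. Its brightest probe set (X05834_at) read 218.3, 241.6 and 100.1 in controls, 174.4 and 229 at 1 hr, and 333.8, 253.7 and 219 at 2 hr. The 2 hr arrays overlapped the controls, with a log2 change of 0.60 (SE 0.364), and 0.20 without control replicate 3. At 1 hr the change was 0.20, and -0.20 without that control. The other 4 probe sets read 0.48, 0.59, -0.27 and 0.00 at 2 hr, and 0.47, -0.06, 0.52 and 0.75 at 1 hr. The first of them (U82612cds_at) had both 1 hr arrays above all controls, but only by 49.1 against 49.0. On the dimmest (M28259cds_at), all 3 controls and all 3 2 hr arrays sat at the floor of 9.18 while the 1 hr arrays read 10.8 and 22.2, the lower of them close to the floor.

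Matrix Gla protein, from Mgp, inhibits calcification and is made by fibroblasts and smooth muscle. Its probe set (rc_AI012030_at) read 161.2, 202 and 326.1 in controls, 232.7 and 239.1 at 1 hr, and 219.2, 420.4 and 180.6 at 2 hr. The highest values were on 2 hr replicate 2 and on control replicate 3, the array where the collagens were lowest. The arrays of the groups overlapped, with a log2 change of 0.22 (SE 0.374) at 2 hr, which was 0.50 without control replicate 3 and -0.14 without 2 hr replicate 2. At 1 hr it was 0.10 (SE 0.419), and -0.12 without control replicate 1.

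Aldh1a2 makes retinoic acid from retinal and marks the meninges of the adult and developing brain. Its probe set (U60063_at) read 63.1, 75 and 9.6 in controls, 68.4 and 96.7 at 1 hr, and 87.5, 117 and 86.7 at 2 hr. The 2 hr arrays lay above all controls, whereas 1 hr replicate 1 lay between control replicates 1 and 2. The control means were 5.16 ± 1.65 (SD, n = 3) on the log2 scale, with a spread that came from control replicate 3, which read just above the floor of 9.18. The log2 change was 1.43 (SE 0.7) at 2 hr and 1.19 (SE 0.783) at 1 hr, the largest of the 10 genes in both comparisons, and limma's adjusted p was 1. Without control replicate 3 it was 0.48 and 0.24, and that rank was lost, to Mgp at 2 hr (0.50) and to Mgp (0.39) and Col1a2 (0.32) at 1 hr.

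Ptgds encodes lipocalin-type prostaglandin D synthase, which makes prostaglandin D2 and is secreted into cerebrospinal fluid. Its probe set (J04488_at) read 3121.1, 3133.8 and 2918.7 in controls, 3110.5 and 2168.9 at 1 hr, and 3240.4, 1896.2 and 4460.2 at 2 hr. The controls were close together, at 11.58 ± 0.06 (SD, n = 3) on the log2 scale, and the 2 hr arrays were spread on both sides of them, at 11.56 ± 0.62 (SD, n = 3). The change at 2 hr was -0.02 (SE 0.453), which read 0.17 after quantile normalization, and 0.31 without 2 hr replicate 2. At 1 hr it was -0.23 (SE 0.507), resting on 1 hr replicate 2, without which it was 0.03.

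Igf2 encodes insulin-like growth factor 2, a growth factor that adult brain receives mainly from meninges and choroid plexus. Its brightest probe set (X17012mRNA_s_at) read 393.2, 571.1 and 283.4 in controls, 274.4 and 283.2 at 1 hr, and 487.1, 908.3 and 170.2 at 2 hr. Both 1 hr arrays lay below all controls, with a log2 change of -0.52 (SE 0.601; limma, adjusted p = 1), whereas the 2 hr arrays held both the highest and the lowest value of the 8. The 2 hr change was 0.08 (SE 0.538), and -0.47 without 2 hr replicate 2 and 0.74 without 2 hr replicate 3. The other 5 Igf2 probe sets had floored intensities with ranges of 1.26-fold to 4.5-fold over the arrays, and 3 of them were above the floor on only 3 to 5 arrays. The 2 that were above it on all 8, M17960_g_at and M17960_at, read 0.28 and 0.37 at 1 hr, opposite to the brightest, and 0.18 and 0.13 at 2 hr.

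**Figure D3:**
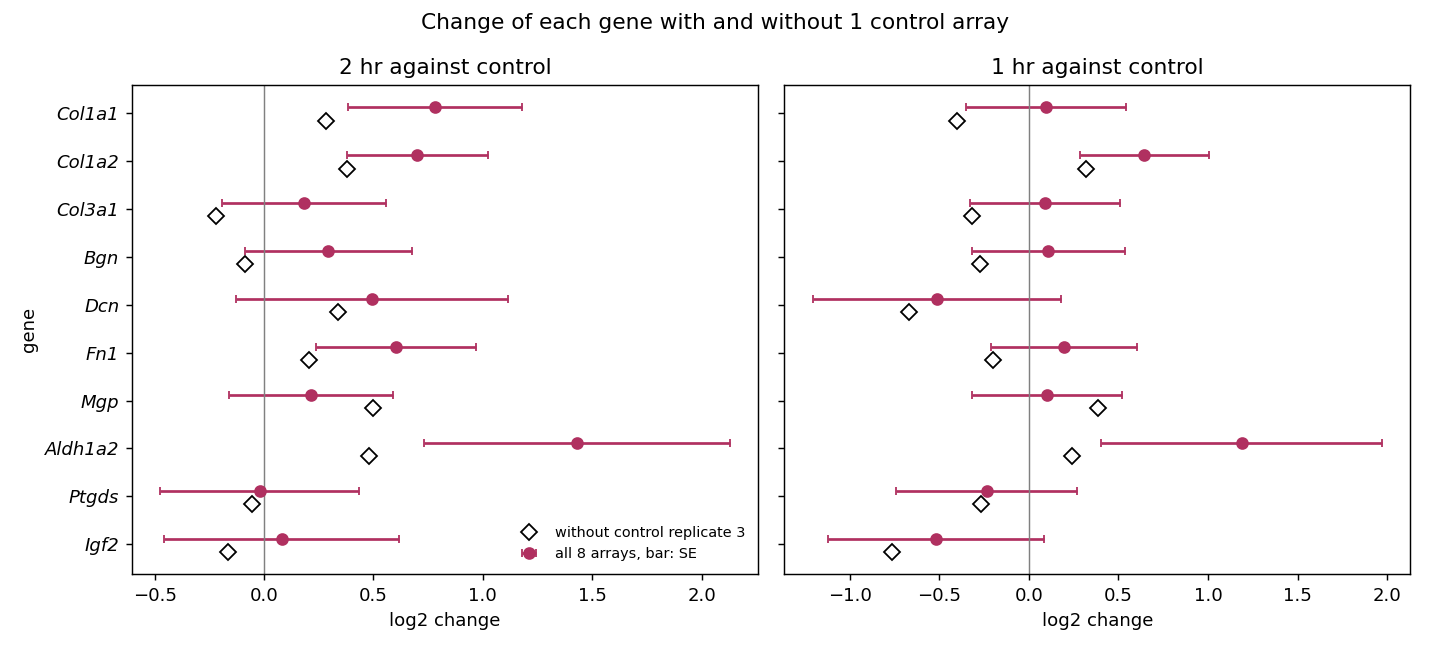
Log2 change of each gene (rows, brightest probe set) against control after 2 hr (left) and 1 hr (right), with all 8 arrays (filled circles, bars are SE) and without control replicate 3 (open diamonds). At 2 hr Mgp, Aldh1a2, Col1a2, Dcn, Col1a1 and Fn1 stay above 0 without it, at 0.50, 0.48, 0.38, 0.34, 0.28 and 0.20, while Col3a1, Bgn and Igf2 move below 0 and Ptgds is below 0 both ways.

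Values within classes of arrays are given as a description, since most arms held 1 array and no difference between classes can be read from them. Among the 3 arrays of highest top intensity (1 array against 1) the median shift of the 10 genes was 0.90, and among the other arrays (2 against 2) it was 0.37, with 8 and 7 genes higher. The 5S ribosomal RNA control also parted the arrays. Its intensity was 12.9 to 23.7 on control replicates 1 and 2 and 2 hr replicate 1, and 70.4 to 141.7 on the other 5. Among the arrays of low 5S reading (1 against 2) the median shift was 0.17, and among the others, where control replicate 3 was the only control, it was 0.999. At 1 hr the shift was 0.86 within the arrays of highest top intensity (1 against 1) and -0.34 within the others (1 against 2). No 1 hr array had a low 5S reading, so at 1 hr only the others gave a value, 0.88.

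**Figure D4:**
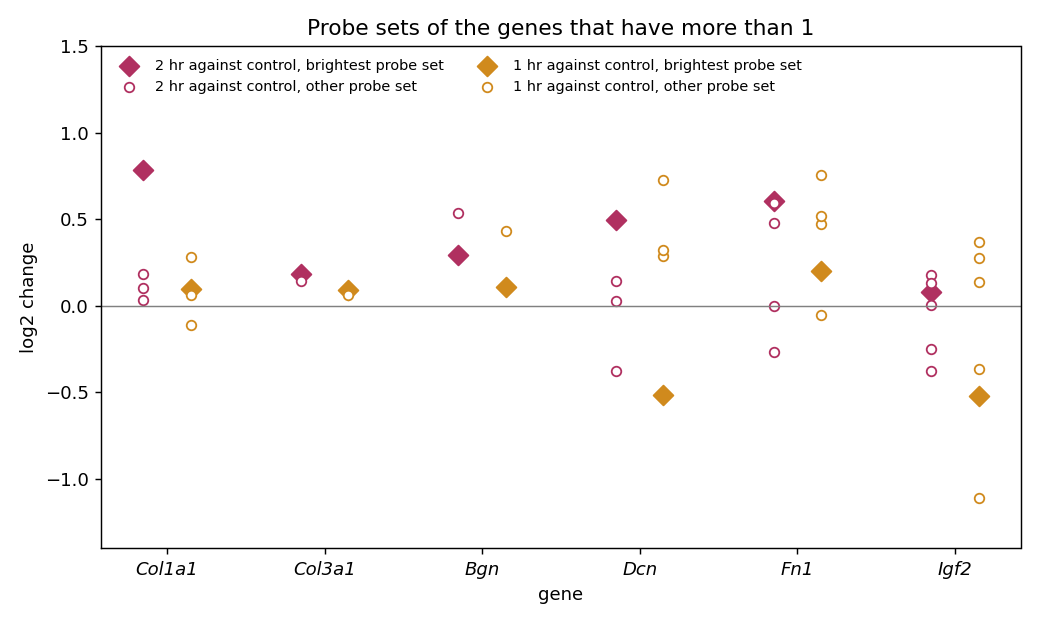
Log2 change against control of every probe set of the 6 genes with more than 1, after 2 hr (left of each pair) and 1 hr (right), with the brightest probe set as a filled diamond and the others as open circles. The Col1a1 diamond at 2 hr stands at 0.78, above its other probe sets at 0.03 to 0.18, and the Dcn and Fn1 probe sets lie on both sides of 0.

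Probe sets of 1 gene agreed closely only in part. The 2 of Col3a1 correlated over the 8 arrays at Pearson's r = 0.94 (exact permutation p = 0.0017, adjusted p = 0.0329 over 39 pairs of probe sets; Spearman's rho = 0.76, exact permutation p = 0.0368), and at 0.83 without the 2 arrays farthest from the median. For Fn1 the brightest and U82612cds_g_at correlated at r = 0.82 (exact permutation p = 0.0001, adjusted p = 0.0029; rho = 0.98, exact permutation p = 0.0004), and at 0.84 without the 2 farthest arrays. The 2 of Bgn correlated at r = 0.23 (exact permutation p = 0.569, adjusted p = 0.812), and the brightest Dcn probe set and Z12298cds_s_at at -0.58 (exact permutation p = 0.132, adjusted p = 0.467). In this array's naming, an _i_ or _r_ ending marks a probe set with fewer or less selective probes than usual, and _s_ one that may read related transcripts.

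Co-variation was computed for the 45 pairs of the 10 genes on the brightest probe sets. Pearson's r ran from -0.72 to 0.95 with a median of 0.19, and 28 pairs were above 0. By the exact permutation test 14 pairs had a p under 0.05, and 1 pair, Col3a1 with Bgn, passed after adjustment over the 45. By Spearman's rho 9 pairs had a p under 0.05 and 0 passed after adjustment. That pair had r = 0.95 (exact permutation p = 0.0002, adjusted p = 0.0078) and rho = 0.93 (exact permutation p = 0.0022, adjusted p = 0.1004), and r was 0.86 without the 2 arrays farthest from the Col3a1 median and 0.89 without control replicate 3. Col1a1 and Fn1 followed at r = 0.94 (exact permutation p = 0.0023, adjusted p = 0.0525; rho = 0.90, exact permutation p = 0.0046), and 0.84 without the 2 farthest arrays.

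Most other high values rested on control replicate 3. Over the 15 pairs among the 6 genes that read lowest on it, a set picked after its values were seen, r ran from 0.71 to 0.95 with a median of 0.84. Without that array the same pairs ran from -0.36 to 0.89 with a median of 0.29. Col1a1 and Col1a2, whose products join in 1 molecule, had r = 0.83 (exact permutation p = 0.0459, adjusted p = 0.155; rho = 0.52, exact permutation p = 0.197) over 8 arrays and -0.03 without the 2 arrays farthest from the Col1a1 median, control replicate 3 and 2 hr replicate 2. Col1a2 and Aldh1a2, the pair with upstream sequence above, had r = 0.95 (exact permutation p = 0.0133, adjusted p = 0.104; rho = 0.71, exact permutation p = 0.0576), and 0.54 without the 2 arrays farthest from the Col1a2 median.

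Among pairs with the other 4 genes, most of those with Ptgds shifted under quantile normalization. Dcn (X59859_i_at) and Ptgds had r = 0.88 (exact permutation p = 0.0088, adjusted p = 0.104; rho = 0.81, exact permutation p = 0.0218), 0.82 without the 2 arrays farthest from the Dcn median, 0.89 without control replicate 3 and 0.47 after quantile normalization. Ptgds with Col1a1 went from -0.07 to 0.71 under quantile normalization. Mgp and Ptgds ran opposite, at r = -0.72 (exact permutation p = 0.0433, adjusted p = 0.155; rho = -0.81, exact permutation p = 0.0218), and at -0.56 without the 2 arrays farthest from the Mgp median. Igf2 and Bgn had r = 0.74 (exact permutation p = 0.0375, adjusted p = 0.153; rho = 0.76, exact permutation p = 0.0368), and 0.91 without control replicate 3. After quantile normalization Mgp with Ptgds read -0.56 and Igf2 with Bgn 0.64, in the same direction as before. On deviations from the group means the median over the 45 pairs was 0.40, and after quantile normalization it was 0.47.

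**Figure D5:**
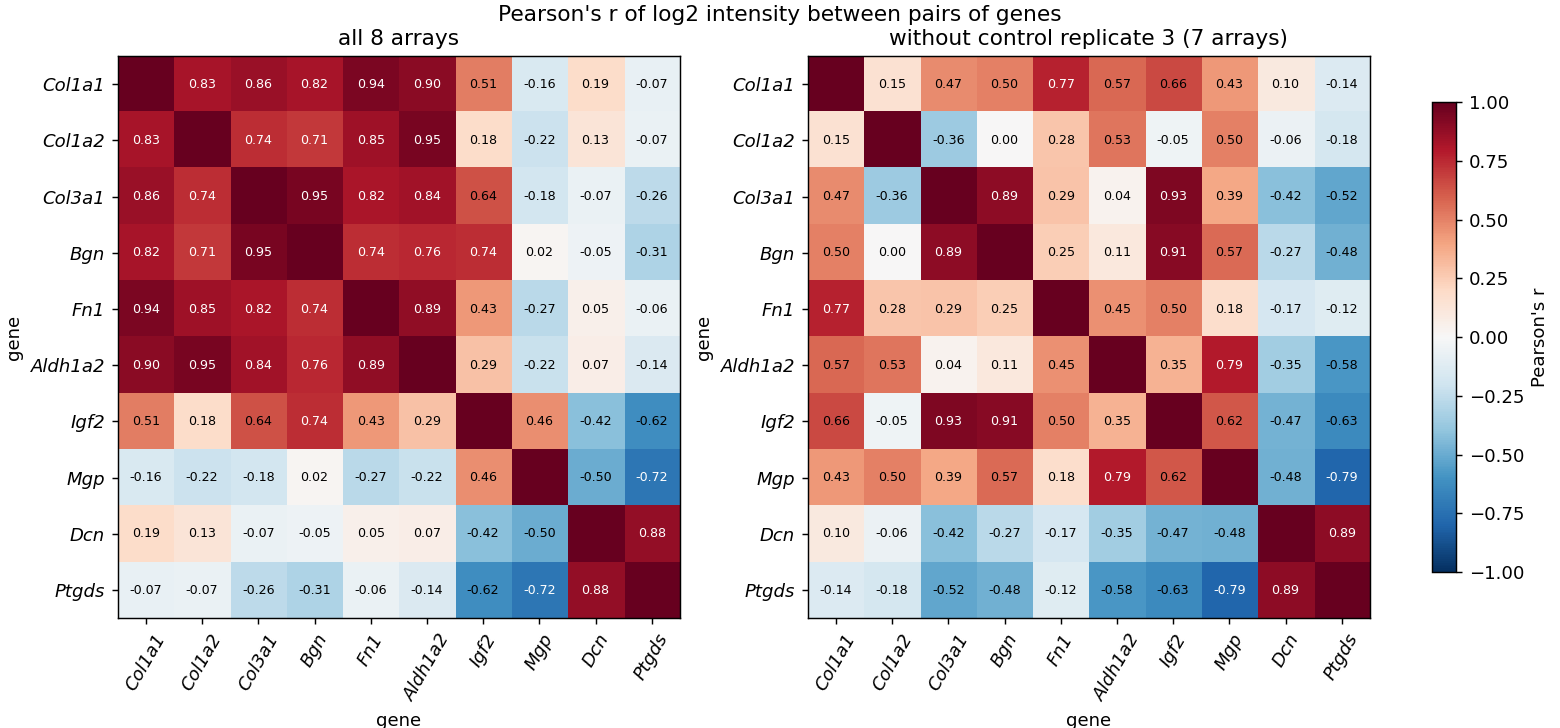
Pearson's r of log2 intensity for each pair of the 10 genes over all 8 arrays (left) and over 7 arrays without control replicate 3 (right), with colour from -1 to 1. The 6 genes at the top left form a red square from 0.71 to 0.95 over 8 arrays, which thins to -0.36 to 0.89 without control replicate 3, while Dcn with Ptgds reads 0.88 and 0.89 in these panels (0.47 after quantile normalization, not drawn).

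The genes outside the set that followed the collagen mean most closely were found among 3408 genes above the floor on all 8 arrays. By Pearson's r over the 8 arrays, given as a description, they were Wiz at 0.98, Sts at 0.97, and Irgq, Ehmt2, Trappc10 and Nnt at 0.96. None of these 6 is a matrix gene: Ehmt2 encodes a histone methyltransferase and Wiz its zinc finger partner, Sts steroid sulfatase, Trappc10 a vesicle tethering subunit and Nnt a mitochondrial transhydrogenase. Wiz read 27.5 on control replicate 3 and 101.4 to 170.9 elsewhere, and Irgq 49.1 and 162.5 to 415.3. Without that array their r with the collagen mean ran from 0.62 to 0.81. Aldh1a2 stood at rank 7, Fn1 at rank 30 and Bgn at rank 124 of the 3408, and Igf2 at rank 853, Dcn at 1566, Ptgds at 2033 and Mgp at 2172. Without control replicate 3 the r of Igf2 went from 0.48 to 0.83 and that of Mgp from -0.19 to 0.64, above the 0.59 of Aldh1a2.

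Other matrix genes were taken from lists named for this description, with 1 probe set per gene and no set test. Of 27 tested genes of fibrillar matrix and its assembly (of 52 listed), 17 were above and 10 below the controls after 2 hr, with a median log2 change of 0.28, and 0 passed limma's test over all probe sets. The median was 0.11 without control replicate 3, with 20 above and 7 below. The smallest unadjusted p among them belonged to Gpc3, a glypican of the cell surface, with an unadjusted limma p of 0.00764 (adjusted p = 1). Its mean was 4.28 ± 0.47 (SD, n = 3) in controls and 5.78 ± 0.16 (SD, n = 3) at 2 hr on the log2 scale. It read 13.4, 24.7 and 22 in controls and 49.9, 62 and 53.3 at 2 hr without overlap. Vcan, the proteoglycan versican, followed at 0.65 (limma, adjusted p = 1). Plod1, which hydroxylates collagen lysines, read 10.9 on control replicate 3 and 51.4 to 111.6 elsewhere, so it too was lowest there. Without that array its 2 hr change went from 1.18 to 0.23. It was singled out after its values were seen.

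Of 20 genes of matrix turnover (of 28) 10 were above and 10 below at 2 hr (median 0.04), and 0 passed. Leaving out control replicate 3 gave 16 above and 4 below (median 0.15). Plat, the tissue plasminogen activator, read 1.03 (limma, adjusted p = 1) and Mmp9, a gelatinase, 0.72. Both were lowest of the controls on control replicate 3, and without it read 0.51 and 0.38. Of 23 transforming growth factor beta and bone morphogenetic protein genes (of 25), 12 were above and 11 below (median 0.03). The ligand Tgfb3 had a mean log2 of 4.93 in controls and 6.33 at 2 hr, and the ligand Tgfb2 6.08 and 5.08 (limma, adjusted p = 1 for both). The list had 11 above and 12 below (median -0.01) without control replicate 3.

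The pathways of the 3 secreted signals gave the following counts at 2 hr. Of 12 retinoid genes besides Aldh1a2 (of 22), 4 were above and 8 below the controls (median -0.07), with Rdh10, which makes the retinal that Aldh1a2 uses, at 0.67 and the receptor Rara at -0.45. The retinoid count was 7 above and 5 below (median 0.25) without control replicate 3, and Rdh10 read 0.39. Of 15 prostaglandin genes besides Ptgds (of 18), 8 were above and 7 below (median 0.06), with the receptors Ptgfr at -0.62 and Ptgir at -0.37, which was -0.60 without control replicate 3. The prostaglandin count was the same without control replicate 3 (median 0.03). Of 13 insulin-like growth factor genes besides Igf2 (of 15), 10 were above and 3 below (median 0.26). Leaving out control replicate 3 gave 11 above and 2 below (median 0.31). Igf2r, the receptor that clears insulin-like growth factor 2, read 1.61 (limma, adjusted p = 1) and Grb10, an adaptor that dampens the receptors, 0.70. Without control replicate 3 Igf2r read 1.83 and Grb10 0.48. In these 5 lists together with the fibrillar list, 0 genes passed in any of the 3 comparisons.

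The name given to the set was held against other genes of meninges and fibroblasts that are not in it. Of 26 listed, 13 were tested, and 7 were above and 6 below the controls at 2 hr, with a median log2 change of 0.03, and 6 above and 7 below at 1 hr. Without control replicate 3 there were 9 above and 4 below at 2 hr (median 0.11) and 8 above and 5 below at 1 hr (median 0.21). Of the 13, 5 stand in another list here too: Lox, Fmod, Lum and Vtn in the fibrillar list and Crabp2 in the retinoid list. Slc22a6, an organic anion transporter of the arachnoid, read 0.79 and Vtn, vitronectin, 0.60 at 2 hr, and neither passed limma's test (adjusted p = 1). Vtn read 0.29 without control replicate 3. Summed over the 13, the list's intensity was 4210.3 to 5295.1 in controls, 4490.2 and 5051.1 at 1 hr and 4075.1 to 5157.8 at 2 hr, most of it from Thy1, which neurons also make. Without Thy1 the sum was 951.8 on control replicate 3, above the 816.9 and 712.8 of the other controls, and 712.8 to 1104.7 over all arrays. Crabp2, which carries retinoic acid in meningeal cells, S100a4 and Lum, a proteoglycan of collagen fibres, were highest of the 8 arrays there, at 189.4, 176.7 and 55.2. Vtn and Pdgfra, a receptor of fibroblasts and glial precursors, were lowest there, at 69.2 and 110.5.

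Markers of other cells of the dissection differed between arrays, some on 1 array and some on both 1 hr arrays. The summed intensity of 14 choroid plexus and ependymal markers was 4259.4 on 1 hr replicate 2 and 962.8 to 1450.6 on the other 7, through Ttr, transthyretin, at 2964.6 there and 120.9 to 309 elsewhere. On the same array Igf2 read 283.2 and Ptgds 2168.9, the second lowest of the 8 for Ptgds. On both 1 hr arrays the choroid plexus markers Sostdc1 (93.2 and 77.3, against 7.9 to 41.2 elsewhere) and Slc4a2 (214.7 and 158, against 55 to 131.7) were above all other arrays, and so was the pituitary hormone Prl (44.5 and 51, against 3 to 15.2). Their log2 changes at 1 hr were 2.03, 1.21 and 1.95 (limma, adjusted p = 1 for each), and what part these cells had in the 1 hr values of the 10 genes was not tested. Sostdc1, Slc4a2 and Prl were singled out after their values were seen. Of the 14 choroid plexus and ependymal markers 10 were above and 4 below the controls at 1 hr. Of the 8 pituitary markers 7 were above and 1 below. Enpp2 too was above all other arrays on both 1 hr arrays. On 1 hr replicate 1, Ttr (171.2) and Gh1 (24.8) lay within the range of the control and 2 hr arrays. Krt18 (11.1) was the lowest of the 8 arrays there. The 8 pituitary markers summed to 927.6 on 2 hr replicate 2, to 536.2 on 1 hr replicate 2 and to 241.9 to 315.5 elsewhere. Igf2, Mgp, Bgn, Col3a1, Col1a1 and Aldh1a2 were highest on 2 hr replicate 2. Most of the 927.6 came from Cga, at 594.1 there and 104.9 to 132 elsewhere. Pomc (137.5) and Tshb (57.3) were also highest there, while Gh1 (22.7) was the lowest of the 8 arrays. Of 9 smooth muscle and mural markers the sum was 890.5 to 1144.2 in controls, 934.2 and 1187.5 at 1 hr and 787 to 1463.7 at 2 hr, and their brightest gene Acta2, smooth muscle actin, read 51.7 on control replicate 3 and 212.9 to 712.6 elsewhere. In the same list Tagln (244.6, against 66.4 to 218.6) and Cnn1 (39.8, against 7.5 to 17) were highest on that array, and without Acta2 the sum there was 868, the highest of the 8.

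The 9 endothelial markers summed to 811.3 on control replicate 3 and 1153.4 to 1782.5 elsewhere, through the glucose transporter Slc2a1, without which the sum was 537.4 there and 405.7 to 701.2 elsewhere. The 5 oligodendrocyte markers summed to 7407.3 there and 5190.2 to 10780.7 elsewhere. The 5 astrocyte markers summed to 5732.3 to 10461 over the arrays, the 4 blood markers to 255.6 to 836.9, and the 9 bone, cartilage and muscle markers to 330.9 to 552. By mean log2, control replicate 3 was also the lowest array for the oligodendrocyte markers (9.72), the astrocyte markers (8.64) and the endothelial markers (5.38). It was the highest array for the blood markers (7.60), the bone, cartilage and muscle markers (5.36) and the retinoid list (6.56). Within the astrocyte list Glul, Slc1a2 and Slc1a3 were lowest on control replicate 3, whereas S100b was highest there, at 5665.8. The part of any of these cells in the values of the 10 genes was not tested.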

How the data were processed

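The authors deposited 1 linear intensity per probe set and array; software and scaling target: not given in the sources used here. After trimming 2% the array means ran from 150.17 to 150.32, so the arrays were not scaled again. The 59 control probe sets were left out, values were floored at the 20th percentile, an intensity of 9.18, log2 was taken, and probe sets above the floor on at least 2 of 8 arrays were kept. Changes of dim genes are understated by the floor, and the number of arrays limits the precision.

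Symbols came from the platform's annotation table (7006 probe sets with 1 symbol, 308 with several, 1426 with none). Of those with 1 symbol, 6985 were matched to RefSeq's gene table of GRCr8 and took its symbol, whether or not it differed. The groups were compared in limma 3.58.1 (R 4.3.3; lmFit and eBayes with an intensity trend, all 8 arrays, two-sided, Benjamini-Hochberg over 7770 probe sets, threshold 0.05). The steps were tested on simulated data. Correlations used exact permutation over the 8 arrays, two-sided. Per gene the brightest probe set over all arrays was used, and the others are given beside it.

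All 10 members are named. Outside them the rule took the 6 genes most like the collagen mean and the 2 smallest unadjusted p of each matrix and signalling list at 2 hr. It also took the brightest gene of each list of other cells, given here only for smooth muscle (Acta2), endothelium (Slc2a1) and pituitary (Cga). Those of choroid plexus (Igfbp2), blood (Slc4a1) and bone, cartilage and muscle (Tnnc2) are not described. Further names were chosen after their values were seen. The members and lists were chosen with earlier results of these data known. Alternatives covered normalization, floor, filter, blocks, the mean of probe sets and each array left out. Lists and the collagen mean without control replicate 3, and list sums without their brightest gene, were chosen after seeing the data. Pairs of arrays correlated at 0.895 to 0.974 and shared at most 70 identical values, so no array was a copy of another. These values cannot show whether the arrays came from separate animals.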

Additional observations from a re-analysis of the deposited data

Results flagged for a closer look

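For Dcn on the probe set Z12298cds_s_at, both 1 hr arrays lay above the control mean and all 3 2 hr arrays below it, with a log2 difference of -0.66 between 2 hr and 1 hr. Limma's test of that difference gave an adjusted p of 1, and the brightest Dcn probe set read the opposite, 1.01. The groups held 2 or 3 arrays each, too few for a test for arrays that lie far from their group.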

How the results depend on the processing

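Over the 21 alternatives tried for each of the 20 changes of single members (brightest probe sets of 10 genes, 2 hr and 1 hr against control), none passed limma's threshold in any setting (smallest adjusted p 0.672). Of 420 such values 384 kept their direction and 36 turned, and 7 of the 20 changes never turned, among them Col1a1, Col1a2, Fn1 and Aldh1a2 at 2 hr. At 2 hr Ptgds read 0.17 after quantile normalization and 0.0230 with the 5S block, Igf2 -0.0394 with the mean of all probe sets, and without the 3 arrays of highest top intensity Col3a1 read -0.0566 and Dcn -0.33. At 1 hr median centring gave Col3a1 -0.0255, Col1a1 -0.0191, Bgn -0.0054 and Mgp -0.0131, and the mean of probe sets gave Dcn 0.21. The 5S block gave Mgp -0.29. Without the 3 arrays of highest top intensity Col3a1 read -0.34, Col1a1 -0.33, Fn1 -0.0041 and Bgn -0.49 at 1 hr. The cause of these turns was not tested.

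With 1 array left out, the 2 hr changes ran from -0.14 to 0.50 for Mgp, -0.47 to 0.74 for Igf2, -0.22 to 0.42 for Col3a1, -0.0862 to 0.55 for Bgn, -0.30 to 0.31 for Ptgds and -0.17 to 1.00 for Dcn. The 1 hr changes ran from -0.12 to 0.39 for Mgp, -0.32 to 0.32 for Col3a1, -0.40 to 0.41 for Col1a1, -0.20 to 0.44 for Fn1, -0.27 to 0.33 for Bgn, -0.49 to 0.0254 for Ptgds and -1.41 to 0.39 for Dcn. The median over the 10 genes ran from 0.24 to 0.64 at 2 hr, -0.27 to 0.33 at 1 hr and 0.08 to 0.35 for 2 hr against 1 hr. At 1 hr it was 0.52 with the 5S block and -0.34 without the 3 arrays of highest top intensity.

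Calls over all probe sets stayed at 0 for 2 hr against control. At 1 hr they were 4 with no filter and 0 to 4 with 1 array left out (4 without 1 hr replicate 2), and for 2 hr against 1 hr 4 with no filter, and no member was among them. Replicate numbers gave no clear pairing of the arrays. Deviations of control and 2 hr arrays of the same number correlated at 0.106, -0.088 and 0.286, and not every array correlated best with its own number. Deviations from means of 2 or 3 arrays depend on each other, so they cannot exclude a pairing. The replicate block called 0 probe sets, with medians of 0.39 at 2 hr, -0.15 at 1 hr and 0.59 for 2 hr against 1 hr, and it turned Col3a1 to -0.19, Col1a1 to -0.21, Fn1 to -0.0693 and Bgn to -0.21 at 1 hr. Median centring moved the median of all probe sets at 1 hr from 0.05 to -0.05. Co-variation without the 3 arrays of highest top intensity was not run, since 5 arrays are too few.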
